A study of Mus musculus with 8 samples.

Results

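The 10 genes described here encode the release machinery of the hair cell ribbon synapse, the contact at which sensory cells of the ear pass sound signals to auditory nerve fibres. They were chosen by symbol, not by measured value, although earlier results of these data were already known. Otof stands for exocytosis, Slc17a8 for glutamate loading, and Cacna1d, Cacnb2 and Cabp2 for calcium entry. Ctbp2, Bsn, Pclo, Rims2 and Rimbp2 stand for the ribbon and the active zone. All 10 were found among the 41079 genes of the count tables, and all 10 passed the low-count filter that left 20581 genes for testing. Total RNA of dissected newborn mouse organ of Corti (P0), the sensory epithelium of the cochlea, was sequenced after removal of ribosomal RNA. The libraries labelled knockout (n = 4) carry Emx2-cre and floxed Prox1, so that Cre from the Emx2 locus should delete the homeobox gene Prox1 where Emx2 is active. The wildtype libraries (n = 4) are labelled by that word alone, and whether they carry Cre or a floxed allele, and whether animals were pooled, is not given in the sources used here. Nothing in the labels says that replicates are separate animals, so a p-value here reflects only how far these samples scatter, part of which may be technical.

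Inner ear hair cells release glutamate continuously and in proportion to their receptor potential. The synaptic ribbon, built mainly of RIBEYE, holds vesicles near CaV1.3 calcium channels, and otoferlin takes the part that synaptotagmins play at most other synapses in coupling calcium to vesicle fusion. Bassoon, piccolo, RIM and RIM-binding proteins are scaffolds that hair cells share with neurons, whereas otoferlin and CaBP2 serve mainly hair cells in the cochlea. The newborn mouse cochlea does not yet hear, and its ribbon synapses are still maturing. Counts of dissected tissue cannot tell fewer hair cells from less RNA per hair cell, or assign a scaffold gene to hair cells or nerve fibres.

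Before the synapse genes, the libraries themselves are described, as they differ in depth and in marker levels. Libraries labelled knockout held 29908965 to 32613549 counts, against 32863533 to 42318233 in wildtype. Prox1 itself was higher in the libraries labelled knockout, at 139 ± 5.71 CPM (counts per 1000000 of the scaled library size) against 111 ± 4.29 CPM in wildtype (SD, n = 4 each), so directions below hold for the libraries as labelled. The log2 fold change of Prox1 was 0.33 ± 0.05 (SE, adjusted p = 0.0298, edgeR), and it passed in 1 of the 8 fits with 1 library left out, that without library 4 labelled knockout, the adjusted p of the other 7 lying between 0.0599 and 0.180. For Emx2, whose locus carries Cre, the mean was 19.7 ± 2.39 CPM in libraries labelled knockout and 16.2 ± 1.61 CPM in wildtype (log2 fold change 0.28 ± 0.10, adjusted p = 0.607, edgeR). Counts over the whole gene do not check the deletion of a floxed part. Hair cell markers were present throughout: none of 22 was at 0 in any library, and their summed level was 900 to 929 CPM in libraries labelled knockout and 836 to 974.9 CPM in wildtype. Neuron markers were present too, with none of 17 at 0 and sums of 873 to 1102 CPM in libraries labelled knockout and 787 to 1131 CPM in wildtype. The lowest neuron sum belonged to wildtype library 3, the highest to wildtype library 2. Wildtype library 3 also had the lowest value of 7 of the 10 synapse genes, and values without it are given for those 7.

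Promoter windows of 3 members are shown because their genes followed different courses over the libraries: Slc17a8 and Cabp2 were high in wildtype libraries 3 and 4, and Pclo was low there. Slc17a8 and Cabp2 did not share a course in the libraries labelled knockout. By rank from the highest, Cabp2 was 8 and Slc17a8 3 in library 3 labelled knockout, and Cabp2 was 1 and Slc17a8 6 in library 4. A link between window and course was not tested. The windows are RefSeq promoter sequences on GRCm38.p6, an older build than that named for the counts. They run 5′ to 3′ toward the first listed start of each gene, without bases that any annotated exon covers, and capitals mark CG dinucleotides. The Slc17a8 window is chr10:89621254-89621499 on the minus strand, that of Cabp2 chr19:4082238-4082487 on the plus strand and that of Pclo chr5:14514668-14514917 on the plus strand.
Slc17a8: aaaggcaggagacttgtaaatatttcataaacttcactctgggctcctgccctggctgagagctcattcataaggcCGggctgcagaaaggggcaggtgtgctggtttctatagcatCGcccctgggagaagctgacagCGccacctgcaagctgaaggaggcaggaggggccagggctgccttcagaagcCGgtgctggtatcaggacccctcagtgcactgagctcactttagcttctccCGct
Cabp2: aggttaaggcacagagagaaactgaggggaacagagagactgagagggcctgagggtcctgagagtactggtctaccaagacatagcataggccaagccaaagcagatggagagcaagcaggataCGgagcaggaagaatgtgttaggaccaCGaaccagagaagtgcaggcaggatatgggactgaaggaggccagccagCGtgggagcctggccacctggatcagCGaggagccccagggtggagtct
Pclo: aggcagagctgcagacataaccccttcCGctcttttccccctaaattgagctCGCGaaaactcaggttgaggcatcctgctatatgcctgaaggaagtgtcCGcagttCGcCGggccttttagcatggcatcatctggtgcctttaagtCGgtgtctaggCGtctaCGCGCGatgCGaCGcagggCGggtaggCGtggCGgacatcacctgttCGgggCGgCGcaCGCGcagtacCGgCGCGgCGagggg
Within 250 bases upstream of these starts, Slc17a8 had 5 CG dinucleotides, Cabp2 had 4 and Pclo had 25, where the median of all 32851 windows was 6. Bsn, the closest relative of Pclo, had 32, more than 95.4% of windows. Rimbp2, which was also low in wildtype libraries 3 and 4, had 4. The windows of Ctbp2, whose lowest value was likewise in wildtype library 3, had 2 and 7. The table held 13 windows for 8 members, namely all but Otof and Rims2. Of these 13 windows, 4 held CAGCTG, an E-box that reads alike on both strands, against 13.0% of all windows: 1 each of Cacna1d and Rimbp2 and both of Cacnb2. TATAAA, searched on both strands, was in 2 windows (12.4% of all windows) and ATTAAT, also on both strands, in 2 (4.39%), and none of the 3 motifs was in the windows printed. A match of letters is a description of the window and not a bound site.

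No member differed between the groups beyond the spread of the libraries. By edgeR's quasi-likelihood F test, 0 of 10 passed an adjusted p of 0.05 (Benjamini-Hochberg over all 20581 genes), where 0.0923% of all tested genes did (0.034% higher and 0.0583% lower in libraries labelled knockout). At an unadjusted p under 0.05 the count was 0 of 10 by edgeR, against 7.55% of all genes. By both DESeq2 and limma-voom it was 1 of 10, Slc17a8, and their adjusted values likewise called 0. The share of all genes under 0.05 by those tools was not taken, so this count has no background beside it. In none of the 10 did the groups separate without overlap, which 3.69% of all tested genes did in either direction (2.07% higher and 1.62% lower in libraries labelled knockout). The log2 fold changes ran between -0.27 and 0.21 with a median of 0.01, and 6 members lay above 0 and 4 below. Of all tested genes 50% lay below 0, and their median was 0. In the authors' deposited table, which used DESeq2, the adjusted p of the members ran between 0.663 and 0.999. Slc17a8 alone had an unadjusted p under 0.05 there. The deposited log2 fold changes of the members equal those of the DESeq2 fit made here, so they are not a separate result.

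**Figure D1:**
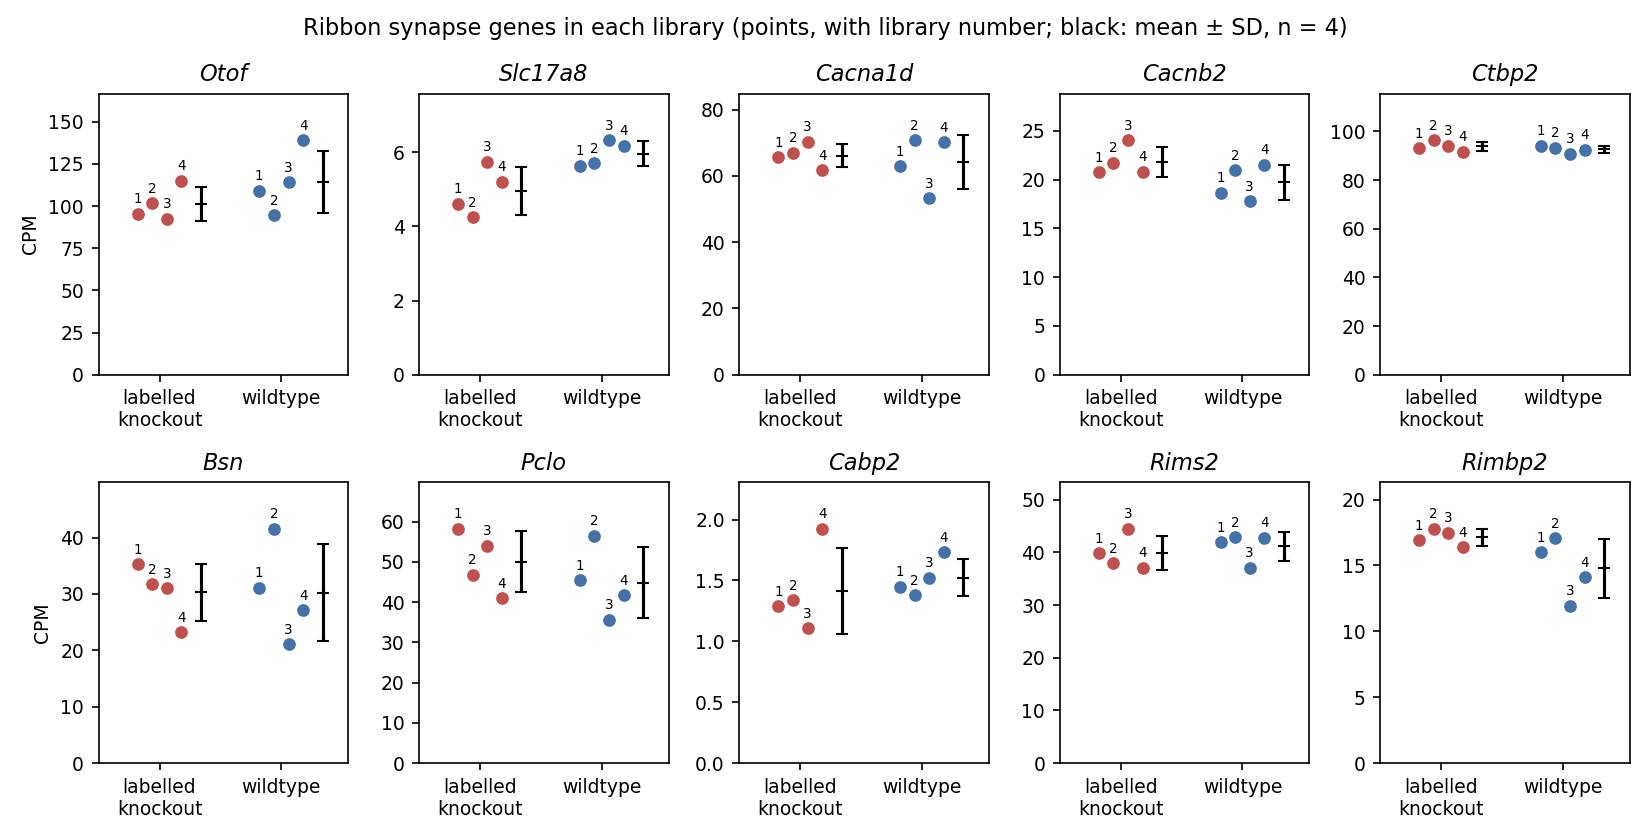
Each panel shows 1 ribbon synapse gene in CPM (axis from 0), with libraries labelled knockout left and wildtype right, the library number above each point, and the mean ± SD of 4 libraries in black. The groups overlap in all 10 panels; Ctbp2 is nearly level at 90.9 to 96.3 CPM while Bsn spreads between 21.1 and 41.5 CPM.

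Otof encodes otoferlin, the calcium sensor of hair cell exocytosis whose loss causes deafness in mice and humans. It had 95.5, 102, 92.5 and 115 CPM in the libraries labelled knockout 1 to 4, against 109, 94.7, 114 and 139 CPM in wildtype libraries 1 to 4. Wildtype library 4 stood highest, while wildtype libraries 1, 2 and 3 lay within the range of the libraries labelled knockout. The mean was 101 ± 10.02 CPM in libraries labelled knockout and 114 ± 18.4 CPM in wildtype (SD, n = 4 each). This is a log2 fold change of -0.17 ± 0.10 (SE) with a 95% interval from -0.40 to 0.05 and an adjusted p of 0.667 by edgeR. Single libraries moved this value: it was -0.07 without wildtype library 4 and -0.26 without wildtype library 2. With the hair cell marker score as a covariate it was -0.11 ± 0.07.

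Otof was by far the most abundant ferlin. Per kilobase of exon it averaged 12.8 ± 1.27 CPM in libraries labelled knockout and 14.5 ± 2.33 CPM in wildtype, which was 70.7 ± 1.13% and 70.3 ± 2.69% of the summed level of the 6 ferlin genes (SD, n = 4 each). Next came Myof, the ferlin of myoblast fusion, with 2.08 ± 0.27 and 2.48 ± 0.20 CPM per kilobase in libraries labelled knockout and wildtype, and Dysf, the membrane repair ferlin, with 2.00 ± 0.06 and 2.17 ± 0.09. Of 10 tested genes on the list of other ferlins and of the pathway that inserts tail-anchored proteins such as otoferlin, 0 were called. Their median log2 fold change was -0.06, with 9 of them below 0. Myof had the smallest p of that list, at -0.26 ± 0.09 (SE, adjusted p = 0.618, edgeR).

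Slc17a8 encodes VGLUT3, the transporter that fills inner hair cell vesicles with glutamate and without which mice are deaf. Its level was 4.61, 4.25, 5.74 and 5.20 CPM in the libraries labelled knockout 1 to 4, against 5.64, 5.71, 6.32 and 6.18 CPM in wildtype libraries 1 to 4. Library 3 labelled knockout lay above wildtype libraries 1 and 2, while the other libraries labelled knockout lay below all 4 of wildtype. The means of 4.95 ± 0.66 and 5.96 ± 0.34 CPM in libraries labelled knockout and wildtype (SD, n = 4 each) gave the lowest log2 fold change of the 10 genes. That value was -0.27 ± 0.13 (SE), with a 95% interval from -0.54 to 0.01 and an adjusted p of 0.647 by edgeR. As a fold this interval runs from 0.688 to 1.004. It holds both no change and a level in libraries labelled knockout of 0.688 of wildtype.

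The 2 neuronal vesicular glutamate transporters were at levels near that of Slc17a8. Per kilobase of exon, Slc17a8 averaged 1.05 ± 0.14 and 1.26 ± 0.07 CPM in libraries labelled knockout and wildtype, Slc17a7 (VGLUT1) 1.49 ± 0.27 and 1.61 ± 0.68, and Slc17a6 (VGLUT2) 0.94 ± 0.05 and 1.21 ± 0.32 (SD, n = 4 each). Slc17a8 therefore made up 27.1 to 37.8% of the 3 transporters in libraries labelled knockout and 24.6 to 49.2% in wildtype. The top value belonged to wildtype library 3, where Slc17a7 had 3.54 CPM and Slc17a6 3.92 CPM, while wildtype libraries 1, 2 and 4 had 9.39 to 12.2 CPM of Slc17a7 and 7.14 to 7.78 CPM of Slc17a6. Of 9 tested glutamate transporters outside the members, 0 were called and 8 lay below 0. The smallest p was that of Slc17a6, at -0.37 ± 0.18 (SE, adjusted p = 0.647, edgeR), and Slc1a3, the glutamate uptake transporter of supporting cells, had 166 ± 5.10 CPM in libraries labelled knockout and 167 ± 15.4 CPM in wildtype.

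Cacna1d encodes the pore of CaV1.3, through which nearly all calcium current of inner hair cells flows. Its values were 65.7, 66.9, 70.3 and 61.6 CPM in the libraries labelled knockout 1 to 4, against 63.0, 70.7, 53.2 and 70.2 CPM in wildtype libraries 1 to 4. Wildtype library 3 was low and the other 7 libraries lay close together. The log2 fold change was 0.04 ± 0.08 (SE; 95% interval -0.14 to 0.22, adjusted p = 0.900, edgeR), and without wildtype library 3 it was -0.04. Among the 7 pore genes of high-voltage-activated channels, Cacna1d took 34.03 ± 2.54% of the summed level per kilobase in libraries labelled knockout and 33.6 ± 2.12% in wildtype (SD, n = 4 each). Cacna1e, the CaV2.3 pore, was as abundant, at 5.17 ± 0.98 CPM per kilobase in libraries labelled knockout and 5.05 ± 0.66 in wildtype, where Cacna1d had 5.24 ± 0.28 and 5.09 ± 0.65. Cacna1c (CaV1.2), Cacna1b (CaV2.2) and Cacna1a (CaV2.1) averaged between 1.40 and 1.95 CPM per kilobase in either group. Cacna1f, the L-type pore of photoreceptor ribbon synapses, had 28 counts over the 4 libraries labelled knockout and 24 over wildtype, and did not pass the filter.

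Cacnb2 encodes the beta subunit that brings CaV1.3 to the hair cell membrane. It had 20.8, 21.7, 24.0 and 20.8 CPM in the libraries labelled knockout 1 to 4, against 18.6, 20.9, 17.8 and 21.5 CPM in wildtype libraries 1 to 4. The 2 lowest values were those of wildtype libraries 1 and 3, and the groups overlapped. The log2 fold change of 0.15 ± 0.08 (SE; 95% interval -0.03 to 0.33, adjusted p = 0.654, edgeR) was 0.0993 without wildtype library 3, 0.095 without library 3 labelled knockout and 0.04 without wildtype libraries 1 and 3. Cacnb2 took a small share of the summed level of the 4 beta genes per kilobase of exon. The share was 5.07 ± 0.44% in libraries labelled knockout and 4.63 ± 0.37% in wildtype. Per kilobase, Cacnb3 was the most abundant at 26.8 ± 1.22 CPM in libraries labelled knockout and 26.7 ± 1.05 in wildtype. Cacnb1 followed at 3.79 ± 0.40 and 3.57 ± 0.27 (SD, n = 4 each). The rank of Cacnb2 below Cacnb1 rests on length, with exon unions of 13228 bases for Cacnb2 and 4529 for Cacnb1. Undivided by length, Cacnb2 had 21.8 ± 1.53 CPM in libraries labelled knockout and 19.7 ± 1.80 in wildtype. Cacnb1 was lower, at 17.2 ± 1.80 and 16.2 ± 1.24.

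Cabp2 encodes a calmodulin-like protein that slows the inactivation of CaV1.3 in hair cells and is a human deafness gene. At 37 to 61 counts per library it was the least abundant member, with 1.29, 1.34, 1.11 and 1.92 CPM in the libraries labelled knockout 1 to 4, against 1.45, 1.38, 1.52 and 1.73 CPM in wildtype libraries 1 to 4. Library 4 labelled knockout was the highest of the 8 libraries and the other 3 of its group the lowest. The log2 fold change was -0.10 ± 0.21 (SE), and its 95% interval from -0.55 to 0.35 is the widest of the 10 genes. It was -0.0026 without library 3 labelled knockout and -0.29 without library 4 labelled knockout. Counting error alone gives a coefficient of variation of 14.9% in libraries labelled knockout and 13.3% in wildtype, beside observed values of 25.01 and 10.02%. Of Cabp1, Cabp2, Cabp4 and Cabp5, Cabp2 was nonetheless the highest per kilobase. It averaged 1.05 ± 0.26 CPM in libraries labelled knockout and 1.13 ± 0.11 CPM in wildtype. Cabp1, a neuronal relative, had 0.24 ± 0.05 and 0.28 ± 0.09, and Cabp4, which modulates the photoreceptor channel, 0.26 ± 0.09 and 0.18 ± 0.09 (SD, n = 4 each). The lead of Cabp2 over Cabp1 rests on length, with exon unions of 1350 bases for Cabp2 and 5832 for Cabp1. In summed counts both had 181 in libraries labelled knockout, and in wildtype Cabp1 had 250 and Cabp2 226. Cabp5, known from retinal bipolar cells, had 0 counts over the libraries labelled knockout and 2 over wildtype.

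Among the other channel genes, 0 of 14 tested subunits were called, 9 lay above 0 and 5 below, and the median log2 fold change was 0.02. The smallest p was that of Cacna1g, the T-type CaV3.1 pore, with 71.0 ± 4.10 CPM in libraries labelled knockout and 79.6 ± 3.30 CPM in wildtype (SD, n = 4 each; log2 fold change -0.16 ± 0.06, adjusted p = 0.578, edgeR). Of 11 tested calcium-binding modulators and buffers, 0 were called and 10 lay below 0, with a median of -0.12. Calb1, the buffer calbindin, had the smallest p, at -0.16 ± 0.06 with an adjusted p of 0.618 (edgeR).

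**Figure D2:**
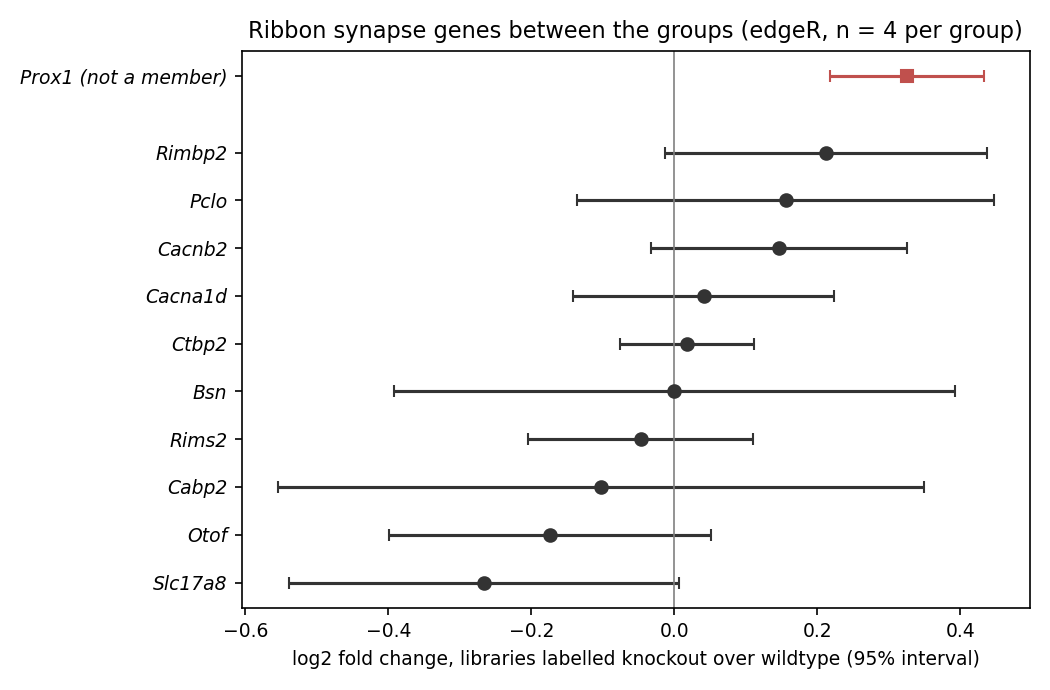
Points are log2 fold changes of libraries labelled knockout over wildtype from edgeR and bars their 95% intervals (n = 4 per group), with Prox1 above the 10 ribbon synapse genes. All 10 intervals include 0; Ctbp2 has the narrowest, from -0.08 to 0.11, and Prox1 lies at 0.33.

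Ctbp2 encodes both the transcriptional co-repressor CtBP2 and, from an internal promoter, RIBEYE, the main protein of the ribbon. In the GENCODE M21 annotation, which lists 20 Ctbp2 transcripts, the one with the longest coding sequence (2964 bases) has a long first exon of its own (1731 bases), as RIBEYE does. The next longest coding sequence has 1335 bases. Counts per gene sum both products, and CtBP2 is made in most cells, so they do not give the RIBEYE level. Ctbp2 had 93.2, 96.3, 94.1 and 91.7 CPM in the libraries labelled knockout 1 to 4, against 94.2, 93.4, 90.9 and 92.4 CPM in wildtype libraries 1 to 4. It was the steadiest member, with a coefficient of variation of 2.09% in libraries labelled knockout and 1.54% in wildtype, close to the 1.82 and 1.70% of counting error. Its biological variation in the fit was lower than that of most genes, at the 5.82nd percentile of all tested genes relative to the trend. The log2 fold change of 0.02 ± 0.04 (SE; adjusted p = 0.921, edgeR) had a 95% interval of 0.95-fold to 1.08-fold, and was 0.007 without wildtype library 3. Its paralog Ctbp1 was more abundant per kilobase, at 47.7 ± 2.39 CPM in libraries labelled knockout and 50.8 ± 2.57 in wildtype, where Ctbp2 had 15.1 ± 0.32 and 14.9 ± 0.23 (SD, n = 4 each).

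Bsn and Pclo encode bassoon and piccolo, giant scaffolds of the presynaptic active zone; bassoon anchors the ribbon to the hair cell membrane. Bsn had 35.2, 31.7, 31.0 and 23.2 CPM in the libraries labelled knockout 1 to 4, against 31.1, 41.5, 21.1 and 27.2 CPM in wildtype libraries 1 to 4. Pclo had 58.2, 46.9, 54.0 and 41.0 CPM in the libraries labelled knockout, against 45.4, 56.5, 35.7 and 41.8 CPM in wildtype. Both were lowest in wildtype library 3, next lowest in library 4 labelled knockout, and highest in wildtype library 2 and library 1 labelled knockout. The spread within a group was larger than the difference between the groups: for Bsn the log2 fold change was 0.00 ± 0.18 (SE; 95% interval -0.39 to 0.39) and for Pclo 0.16 ± 0.13 (-0.14 to 0.45, adjusted p = 0.740, edgeR). Relative to the trend, the biological variation of Bsn stood at the 98.5th percentile of all tested genes and that of Pclo at the 96.5th. Without wildtype library 3 the log2 fold changes were -0.14 for Bsn and 0.06 for Pclo, and without wildtype library 2 they were 0.19 for Bsn and 0.29 for Pclo.

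Rims2 encodes RIM2, which promotes the clustering of CaV1.3 channels in inner hair cells, and Rimbp2 encodes a protein that links RIM to the channels. Rims2 had 39.8, 38.0, 44.4 and 37.1 CPM in the libraries labelled knockout 1 to 4, against 41.9, 42.9, 37.1 and 42.8 CPM in wildtype libraries 1 to 4. Wildtype library 3 stood apart from the other wildtype libraries, and the log2 fold change was -0.05 ± 0.07 (SE; 95% interval -0.20 to 0.11, adjusted p = 0.858, edgeR). It was -0.0945 without wildtype library 3, -0.11 without library 3 labelled knockout and -0.0159 without library 4 labelled knockout. Rimbp2 had 16.9, 17.8, 17.5 and 16.4 CPM in the libraries labelled knockout, against 16.0, 17.1, 11.9 and 14.1 CPM in wildtype. The 4 libraries labelled knockout lay close together, wildtype library 2 lay among them, and wildtype library 3 was far below. Rimbp2 had the highest log2 fold change of the members, 0.21 ± 0.10 (SE; 95% interval -0.01 to 0.44, adjusted p = 0.647, edgeR), which was 0.12 without wildtype library 3 and 0.29 without wildtype library 2. Its paralog Tspoap1 (RIM-BP1) had 20.2, 21.0, 21.5 and 18.1 CPM in the libraries labelled knockout, against 18.2, 19.4, 15.5 and 16.9 CPM in wildtype, at a log2 fold change of 0.20 ± 0.09 (SE, adjusted p = 0.647, edgeR).

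Each scaffold shared its family with a paralog. Per kilobase, Rims2 made up 62.6 ± 1.07% of the 2 long RIM genes in libraries labelled knockout and 65.2 ± 3.72% in wildtype, the remainder being Rims1. Rimbp2 made up 46.3 ± 1.21% of the 3 RIM-binding protein genes in libraries labelled knockout and 45.8 ± 1.66% in wildtype (SD, n = 4 each). Bsn and Pclo were near each other per kilobase, Bsn taking 46.0 ± 2.03% of their sum in libraries labelled knockout and 48.3 ± 2.28% in wildtype. In all 9 families compared, the share of the ribbon synapse gene overlapped between the groups.

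**Figure D3:**
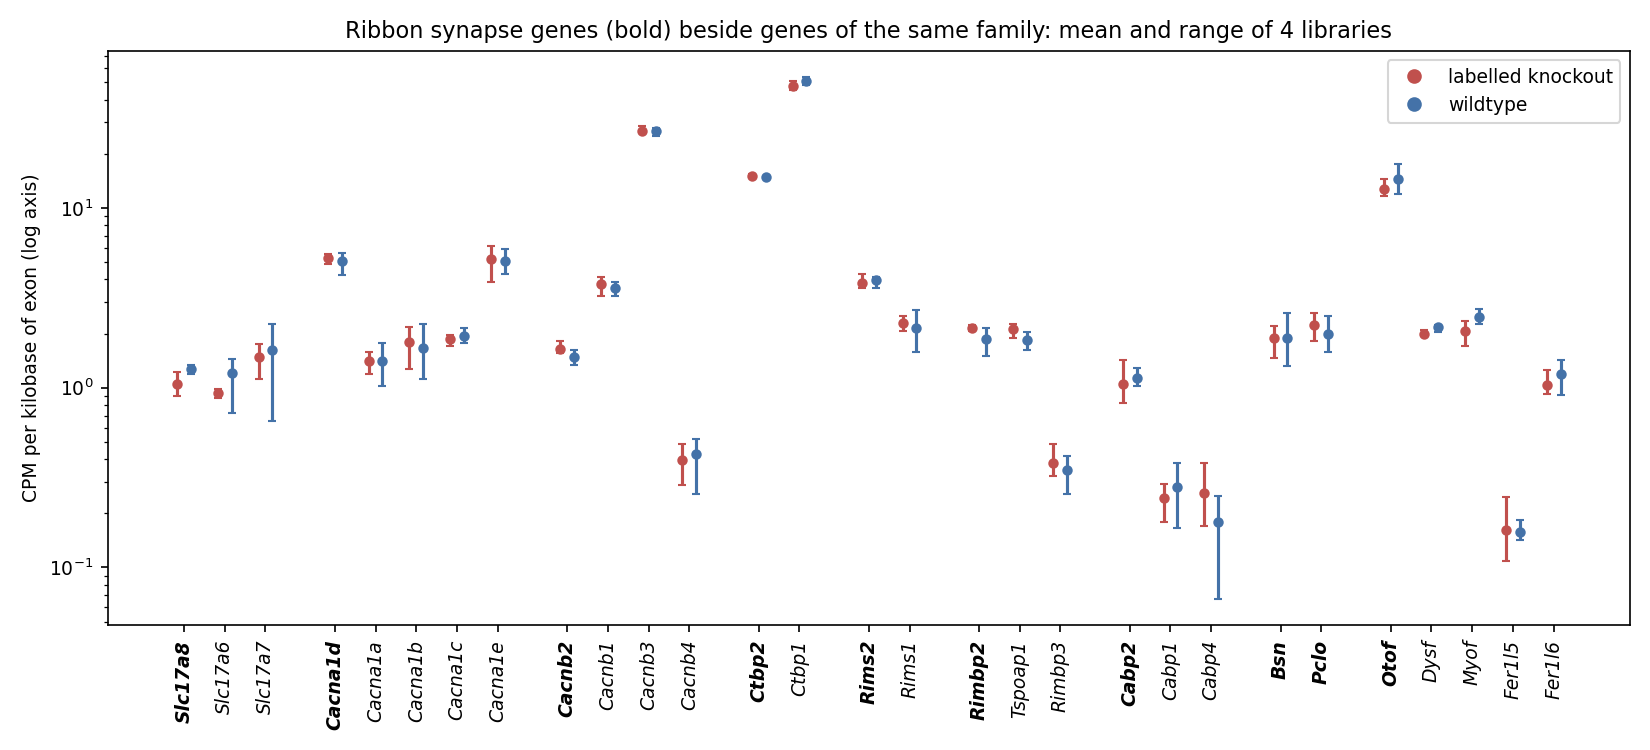
Levels are CPM per kilobase of exon on a log axis for the ribbon synapse genes (bold) and relatives of the same family, as mean and range of the 4 libraries labelled knockout (red, left of each pair) and the 4 wildtype libraries (blue). Otof and Cabp2 stand above the relatives shown, Cabp2 over Cabp1 only when divided by length. Cacnb2 and Ctbp2 lie below Cacnb3 and Ctbp1, and genes with a group mean of 0.05 or less are left out.

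Ordered by mean level per kilobase in libraries labelled knockout, Ctbp2 and Otof came first. Cacna1d, Rims2, Pclo, Rimbp2, Bsn, Cacnb2, Slc17a8 and Cabp2 followed. By the wildtype means Bsn (1.90 CPM per kilobase) came before Rimbp2 (1.86), and the other members kept their places. The steps from Otof to Cacna1d, from Cacna1d to Rims2 and from Rims2 to Pclo held in 8 of 8 libraries, as did that from Cacnb2 to Slc17a8, although there the smallest ratio was 1.00. Ctbp2 lay above Otof in 7 of 8 libraries, the exception being wildtype library 4. Pclo, Rimbp2, Bsn and Cacnb2 were not in a fixed order, nor were Slc17a8 and Cabp2, each such neighbour being the higher in 6 of 8 libraries. Lengths were exon unions in GENCODE M21, so a gene that uses only part of its annotated exons here is set too low.

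Across the 8 libraries the members did not vary as 1 group. Otof and Cabp2 were both highest in wildtype library 4 and library 4 labelled knockout, and both lowest in library 3 labelled knockout. Bsn and Pclo were low in wildtype libraries 3 and 4 and library 4 labelled knockout, where Otof was above its mean, and Cacna1d, Cacnb2, Rims2, Rimbp2 and Ctbp2 shared with them a minimum in wildtype library 3. The mean of the 17 neuron markers was likewise lowest in wildtype library 3 and highest in wildtype library 2. Of these markers, Tubb3, a neuronal tubulin, had 53.4, 34.01, 45.6 and 33.0 CPM in the libraries labelled knockout 1 to 4, against 53.3, 60.0, 28.9 and 38.1 CPM in wildtype libraries 1 to 4. Isl1, a transcription factor of otic neurons, took another course, with 119, 115, 124 and 118 CPM in the libraries labelled knockout, against 97.2, 109, 99.02 and 117 CPM in wildtype. It was thus lowest in wildtype library 1, where Tubb3 was high. With the neuron marker score as a covariate, the SE of the Bsn log2 fold change was 0.09 in place of 0.18 and that of Pclo 0.07 in place of 0.13, while the values were 0.03 and 0.16. The SE was also lower for Cacna1d (0.0623 in place of 0.084), Rimbp2 (0.0787 in place of 0.1033) and Otof (0.0918 in place of 0.1033). For Ctbp2 and Slc17a8 it was not lower. With the hair cell score as a covariate, the SE was 0.1554 for Bsn and 0.119 for Pclo. The nuclear noncoding RNA Malat1 was also lowest in wildtype library 3, at 3072 CPM, with 4217 to 5000 CPM in wildtype libraries 1, 2 and 4 and 4194 to 6401 CPM in libraries labelled knockout. The part of Malat1 or of neuron content in these courses was not tested.

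**Figure D4:**
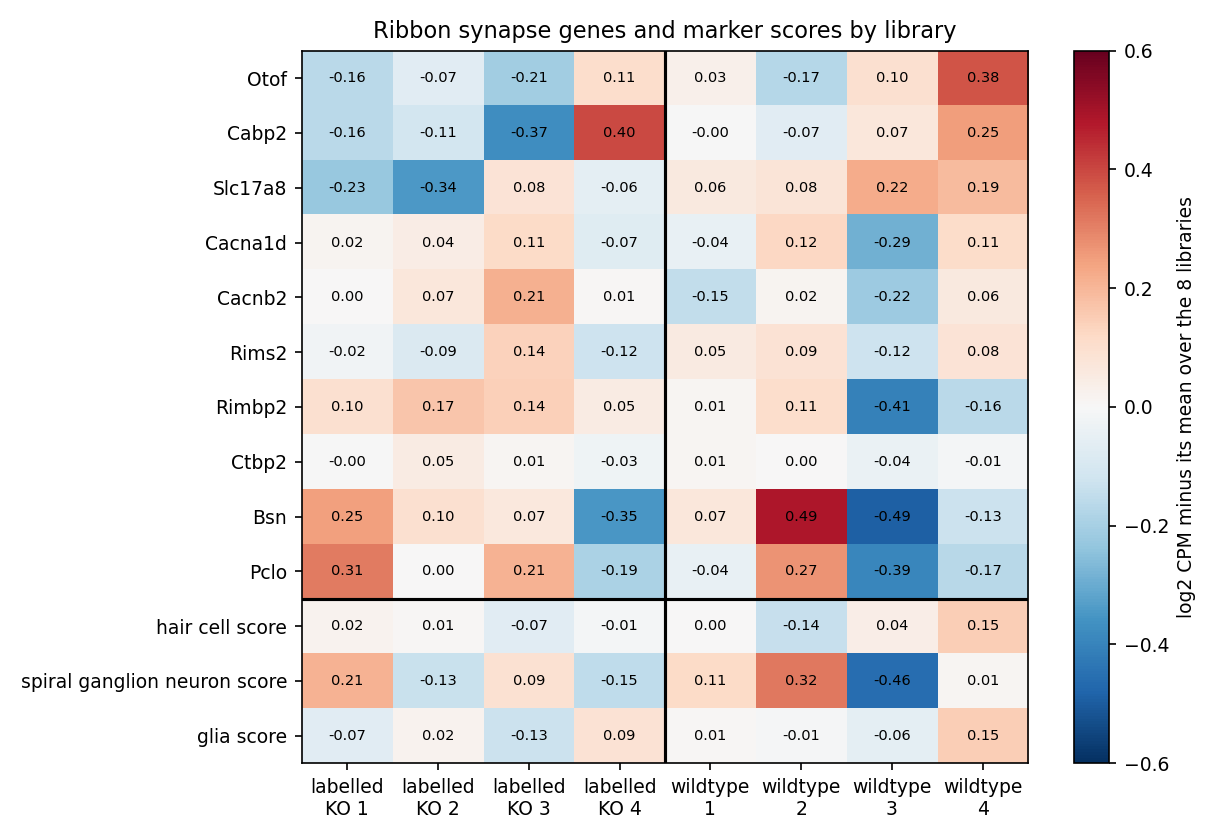
Each cell is log2 CPM in 1 library minus the mean of that row over the 8 libraries, for the 10 ribbon synapse genes and, below the line, the mean log2 CPM of 3 marker lists, with libraries labelled knockout left and wildtype right. Bsn runs from -0.49 in wildtype library 3 to 0.49 in wildtype library 2, as the neuron score runs from -0.46 to 0.32, and Otof peaks at 0.38 in wildtype library 4.

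The genes whose log2 CPM over the 8 libraries was most like that of Otof, with a floor of 2 on a gene's average log2 CPM, were Klhdc7b (Pearson r = 0.98), Cldn14 (0.98), Kncn (0.98), Emc1 (0.97) and Ptgr2 (0.97). Cldn14 encodes a tight junction claudin and Kncn kinocilin, a protein of the hair cell cuticular plate and kinocilium. These values describe 8 libraries that differ in depth and in their marker levels, and the 5 genes were picked as the highest of all tested genes. Without the 2 libraries farthest from the median of Otof, r was between 0.94 and 0.99 over the remaining 6. Those 6 were among the 8 used to pick the genes, so this is not a separate check. Kncn had 3.63, 3.51, 2.99 and 4.64 CPM in the libraries labelled knockout 1 to 4, against 4.27, 3.11, 4.98 and 6.51 CPM in wildtype libraries 1 to 4. It was thus highest in wildtype library 4, as Otof was, and it had a log2 fold change of -0.35 ± 0.21 (SE; adjusted p = 0.672, edgeR), or -0.16 without wildtype library 4 and -0.51 without wildtype library 2. By the same measure Cabp2 was the nearest of the members to Otof (r = 0.81) and Pclo the farthest (r = -0.77). Slc17a8 was at 0.44, and the other members lay between -0.645 and -0.18.

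**Figure D5:**
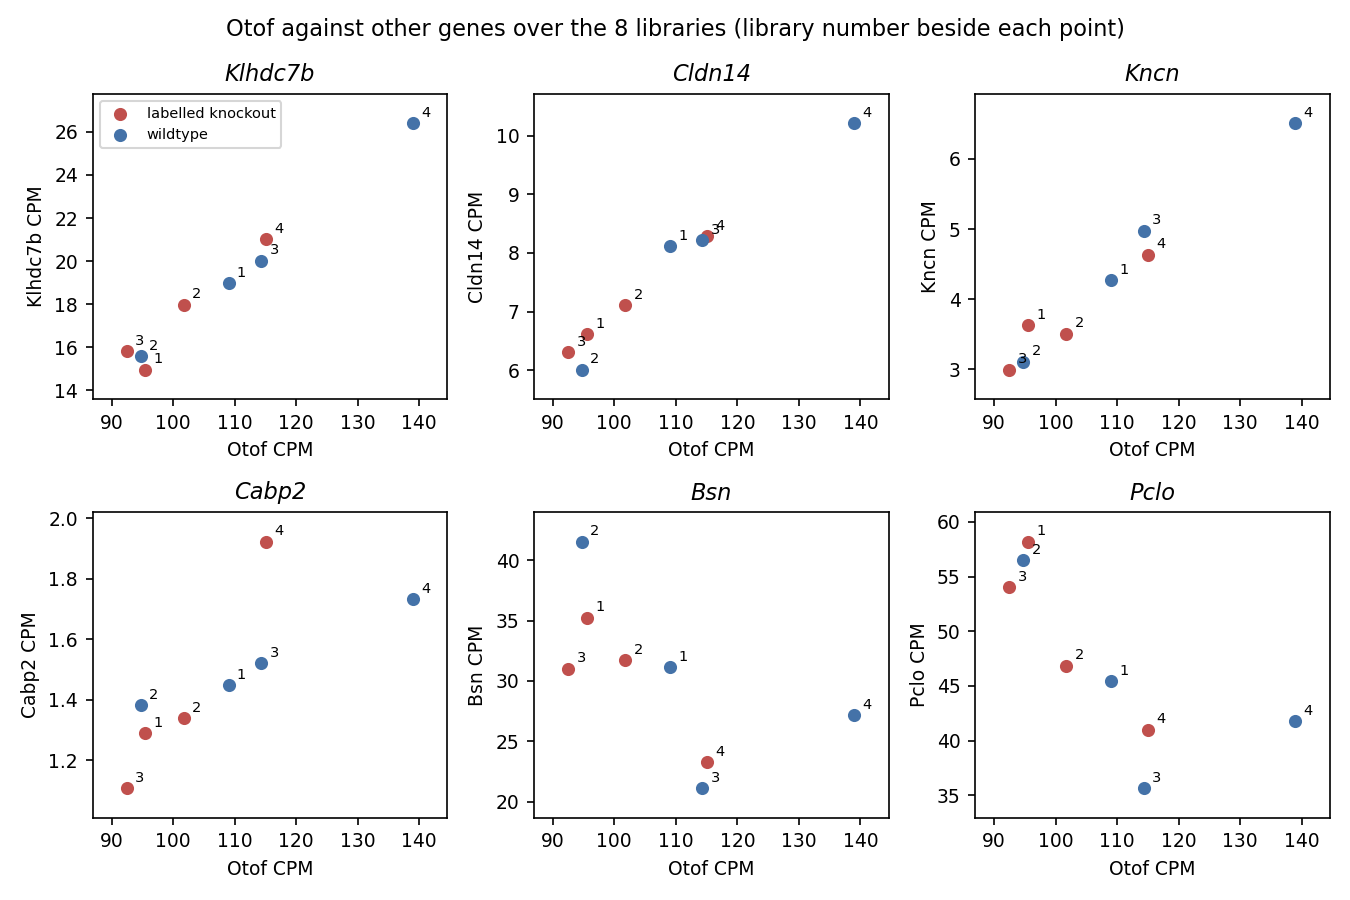
Each point is 1 library (red labelled knockout, blue wildtype, with its number), with Otof CPM on the x axis and another gene's CPM on the y axis; axes do not start at 0. Klhdc7b, Cldn14, Kncn and Cabp2 rise along the Otof axis from 92.5 to 139 CPM, and Bsn and Pclo are highest at its low end.

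The wider release pathway was likewise without calls. Of 148 tested genes on 9 lists of channel, active zone, vesicle, ferlin, transporter and postsynaptic genes, 0 passed over all genes by edgeR, 5 had an unadjusted p under 0.05 (3.38%, where all tested genes had 7.55%), and the median log2 fold change was -0.03. Among 18 active zone genes beside the members, 13 lay above 0 and 5 below, with Tspoap1 having the smallest p. Unc13b, a vesicle priming factor, had 197 ± 3.18 CPM in libraries labelled knockout and 185 ± 11.4 CPM in wildtype, while Unc13a, the main neuronal priming factor, had 10.2 ± 1.67 CPM in libraries labelled knockout and 9.82 ± 2.40 CPM in wildtype. Of 26 vesicle fusion genes, 9 lay above 0 and 17 below, and the smallest p was that of Stx3, a syntaxin of ribbon synapses of the retina (log2 fold change 0.10 ± 0.08, adjusted p = 0.709, edgeR). Snap25, a neuronal SNARE, had 15.9 ± 2.06 CPM in libraries labelled knockout and 16.3 ± 5.70 CPM in wildtype (SD, n = 4 each).

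Vesicle membrane genes had 4 of 13 above 0, with Syn3 (synapsin III) having the smallest p, at 0.20 ± 0.12 (SE, adjusted p = 0.666, edgeR). The Syn3 value was 0.11 without wildtype library 3, 0.31 without wildtype library 2, 0.012 when wildtype libraries 1 and 3 were left out, and 0.028 in the fit that holds the stria score. Vesicle recycling genes had 3 of 19 above 0, with Ap2b1, a subunit of the endocytic adaptor AP-2, at -0.12 ± 0.06. On the receiving side of the synapse, 0 of 28 glutamate receptor and postsynaptic genes were called and 17 lay above 0. Gria4, an AMPA receptor subunit, had the smallest p there, with 34.9, 35.3, 32.4 and 39.3 CPM in the libraries labelled knockout 1 to 4, against 31.8, 33.0, 25.6 and 30.9 CPM in wildtype libraries 1 to 4. Its log2 fold change was 0.23 ± 0.09 (SE; adjusted p = 0.622, edgeR), and its groups overlapped.

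Hair cell markers, set beside the members, gave 0 of 22 called, 9 above 0 and 13 below, with a median log2 fold change of -0.05. Myo15a, the stereocilia tip myosin, had the smallest p among them, with 33.9 ± 7.52 CPM in libraries labelled knockout and 26.04 ± 3.75 CPM in wildtype (SD, n = 4 each; log2 fold change 0.38 ± 0.15, adjusted p = 0.647, edgeR). Relative to the hair cell score, Otof was lower by 0.14 on the log2 scale in libraries labelled knockout and Slc17a8 by 0.25, with SDs of 0.13 and 0.12 among libraries for Otof and 0.22 and 0.09 for Slc17a8 in libraries labelled knockout and wildtype. Cabp2 and Rims2 were also lower by this measure. The other members were higher, with Rimbp2 at 0.251, Pclo at 0.191, Cacnb2 at 0.174, Cacna1d at 0.075, Bsn at 0.056 and Ctbp2 at 0.043. Neuron markers had 0 of 17 called, with Isl1 at 0.17 ± 0.06, and glia markers 0 of 10, with Pmp22 at -0.15 ± 0.06. Markers of the stria vascularis had 10 of 11 below 0 and a median of -0.96. Kcne1, their gene with the smallest p, had 1.16 ± 0.50 CPM in libraries labelled knockout and 7.23 ± 5.23 CPM in wildtype (log2 fold change -2.65 ± 0.51, adjusted p = 0.140, edgeR). In wildtype library 4 Kcne1 had 1.94 CPM, near the 1.90 CPM of library 1 labelled knockout. The mean log2 CPM of the stria markers in wildtype library 4 was 2.02, within the 1.877 to 2.284 of libraries labelled knockout. In wildtype libraries 1, 2 and 3 that mean was 2.849 to 3.673. Kcne1 did pass with the replicate block (adjusted p = 0.0248), without a filter (0.00402), without wildtype library 4 (0.0119) and by DESeq2 (0.0106), and its adjusted p ran up to 1 over the other alternatives. With the stria score as a covariate the log2 fold change of Otof was -0.33 ± 0.13 and that of Slc17a8 -0.29 ± 0.18, neither of which passed (adjusted p = 1 each, edgeR). Mesenchyme markers had 9 of 10 below 0, with Col1a1 at -0.45 ± 0.12, blood and endothelial markers 9 of 9, with Flt1 at -0.20 ± 0.07, and supporting cell markers 6 of 12, with Prox1 alone called. The part of any of these tissues in the values of the synapse genes was not tested beyond these covariates.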

How the data were processed

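Per the labels' protocols, RNA came from a Qiagen RNeasy preparation, and NEBNext Ultra II libraries followed the removal of rRNA. HISAT2 2.2.1, cutadapt 4.3, FastQC 0.12.1, featureCounts and DESeq2 appear in the submitters' processing notes, with GRCm39 as the build. Of annotation, strand setting and multi-mapping reads no account is given in the sources used here, so reads of overlapping genes cannot be told apart. The authors deposited raw counts per gene, per the file headers, with each group's mean signal and its SD. Their DESeq2 table, per the file headers, holds a log2 fold change, a test score and p-values. Its direction is not stated. Its log2 fold changes of the members equal those of libraries labelled knockout over wildtype by DESeq2 here.

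Columns were matched to libraries by library name. The filter was filterByExpr of edgeR at a minimum count of 10, and counts were scaled by TMM and tested with glmQLFTest (edgeR 4.0.16, R 4.3.3), genotype being the only factor. Intervals and SEs derive from that fit. DESeq2 1.42.0 and limma 3.58.1 were alternatives, among others named in the closing section. Levels per kilobase used exon unions of GENCODE M21 (GRCm38) matched by symbol. No pair of replicates agreed within sampling noise (lowest chi-square per degree of freedom 10.72).

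Members and lists were chosen with earlier results of these data known. Genes named are the members, Prox1, Emx2, the gene of each list with the smallest p or past the threshold, paralogs and the 5 genes most like Otof. Other genes named (Dysf, Slc1a3, Cacna1a, Cacna1b, Cacna1e, Cacna1f, Unc13a, Unc13b, Snap25, Tubb3, Malat1) were chosen after their values were seen.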

Additional observations from a re-analysis of the deposited data

Results flagged for a closer look

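Of 96 groups of 4 libraries examined for a value far from the other 3, covering the named genes and the marker scores, 5 held such a value, and chance flags about 1 in 20 (4.8 expected). Among the ribbon synapse genes the single case was Rims2, with 37.1 CPM in wildtype library 3 where wildtype libraries 1, 2 and 4 had 41.9 to 42.9 CPM. Slc17a6 was also far lower there, with 3.92 CPM against 7.14 to 7.78 CPM. Pmp22 had 68.4 CPM in library 4 labelled knockout against 60.6 to 61.5 CPM in the others of that group. In library 1 labelled knockout, Kcne1 had 1.90 CPM against 0.85 to 0.95 CPM in the others, and Cacnb3 had 115 CPM against 104 to 106 CPM.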

How the results depend on the processing

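The count of 0 called ribbon synapse genes held in all 20 alternatives, which were RLE and upper quartile scaling, library totals alone, DESeq2, limma-voom, no filter, a stricter filter (4 or more libraries with 50 counts), the replicate block, 3 marker scores as covariates, each library left out, and wildtype libraries 1 and 3 left out together. The scalings moved the median of all genes by at most 0.0149 on the log2 scale. Calls over all genes numbered 19, and 36 without a filter, 83 with DESeq2, 34 with the neuron score, 8 with the stria score, 9 without wildtype libraries 1 and 3, and 11 to 27 with 1 library left out; the cause was not tested. Of the 19, 7 were higher and 12 lower in libraries labelled knockout, whereas scaling by library totals alone gave 4 higher and 12 lower and the replicate block 3 higher and 12 lower. Otof, Slc17a8, Cabp2 and Rims2 stayed below 0 and Cacnb2, Ctbp2, Pclo and Rimbp2 above 0 throughout. Bsn, at 0.00, was at -0.0001 with RLE, -0.0052 without a filter, -0.0018 with DESeq2, -0.0265 with the hair cell score, -0.0148 with the stria score, -0.19 without wildtype libraries 1 and 3, and between -0.14 and 0.19 with 1 library left out. Cacna1d was at -0.0923 both with the stria score and without wildtype libraries 1 and 3, and between -0.0399 and 0.0897 with 1 library left out. Among relatives, Rims1 was at -0.0695 without wildtype libraries 1 and 3 (-0.0244 to 0.23 with 1 left out), Cacna1c at 0.01 with the stria score, and Cacnb3 at -0.0002 without a filter and with DESeq2, -0.0088 with the stria score, -0.0055 without wildtype libraries 1 and 3 and -0.0281 to 0.0241 with 1 left out. With 1 library left out, Slc17a7 ran from -0.38 to 0.0888 and Cacnb4 from -0.29 to 0.0108.

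With the replicate block, 15 genes were called over all genes and 0 of the members. Libraries that share a number did not deviate together: their correlations ran from -0.275 to 0.214, and 2 of 4 libraries labelled knockout correlated best with the wildtype library of their number. Kcne1 passed under the block (adjusted p = 0.0248, edgeR), and also without a filter, without wildtype library 4 and by DESeq2; Col1a1 passed by DESeq2 (adjusted p = 0.0454). Prox1 had a log2 fold change of 0.33 under the block and did not pass (adjusted p = 0.159, edgeR). Depth limits Cabp2 most, at 37 to 61 counts per library.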
